A study of Mus musculus with 6 samples.

Results

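Transfer RNAs for lysine were followed through small-RNA libraries of mouse brain, in 3 wild type libraries and 3 libraries from mice that lack TRMT1L (TRMT1L KO). They are every nuclear-encoded reference whose name begins with Lys in the deposited per-position tables: 5 of the 190 references listed, of which 2 carry the anticodon CTT (Lys-CTT-2 and Lys-CTT-3) and 3 the anticodon TTT (Lys-TTT-1, Lys-TTT-2 and Lys-TTT-5). The labels describe the libraries of each genotype as biological triplicates and name neither age, sex nor strain. Each library yielded between 6151209 and 8797395 base calls over all references, and lysine references took between 5.29% and 7.30% of them. The tables list tRNA references only, so neither the loss of the Trmt1l transcript nor the brain origin of the RNA was checked. In bulk RNA of this kind, fewer cells of a type and less RNA per cell cannot be told apart.

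Transfer RNAs are cut into shorter RNAs in many tissues, most often in the anticodon loop, and small-RNA libraries hold such fragments beside longer tRNA reads. Lysine tRNA with the anticodon CTT decodes AAG codons, and the one with the anticodon TTT decodes both AAA and AAG. Both kinds carry a threonylcarbamoyl group on the adenosine just 3′ of the anticodon, and the TTT kind carries an additional methylthio group there and a modified wobble uridine. An adenosine in the T loop is methylated on its base-pairing face in many tRNAs, which makes reverse transcriptase stop or misread. TRMT1L is a relative of the tRNA guanosine methyltransferase TRMT1.

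The base sequences below were read from the reference base listed at each position, and show how the CTT and TTT kinds differ along the molecule whose fragments are described. Capitals mark the anticodon (positions 34 to 36), the adenosine at position 37 and the adenosine at position 58, counted from 1 at the 5′ end of the reference.
Lys-CTT-2: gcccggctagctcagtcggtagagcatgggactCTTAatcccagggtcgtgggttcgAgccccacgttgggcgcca
Lys-CTT-3: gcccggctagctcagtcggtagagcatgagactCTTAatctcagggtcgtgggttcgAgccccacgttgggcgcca
Lys-TTT-1: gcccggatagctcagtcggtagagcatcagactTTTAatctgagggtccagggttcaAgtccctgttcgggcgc
Lys-CTT-2 and Lys-CTT-3 differ at 2 of their 76 bases, G29A and C41T, with the base of Lys-CTT-2 first. Lys-TTT-1 was listed to position 74, and over those bases it differs from Lys-CTT-2 at 14 positions and from Lys-CTT-3 at 12. The genome coordinates of these references are not given in the sources used here.

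The TTT references share their reads. Lys-TTT-2 was listed from position 5 to 66, and its 62 bases are identical to those of Lys-TTT-1. Between positions 18 and 60 the median coverage of Lys-TTT-2 lay between 0.93 and 0.97 of that of Lys-TTT-1 in each library, and at 31 of the 53 positions from 13 to 65 their read-start counts were identical in all 6 libraries. The pair was therefore read as 1 source below, with Lys-TTT-1 giving the values. Lys-TTT-5 was listed in wild type replicate 2 only, from position 18 to 32, with at most 38 reads. Its bases were misread in 12 of 35 reads at position 27, and it entered no comparison. No 2 of the 5 references had identical counts throughout.

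Coverage of the 2 CTT references fell steeply in or just beyond the anticodon loop, while the TTT reference was covered on both sides of it. At its best covered position, Lys-CTT-3 had 8013, 7391 and 8013 reads in wild type and 8013, 6225 and 8014 in KO. Coverage in these tables stops near 8000 reads at any position, so 4 of these 6 values are depth limits and not levels. Only wild type replicate 2 and KO replicate 2 fell below the limit for Lys-CTT-3.

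From position 34 to position 35, the first and middle bases of the anticodon, Lys-CTT-3 coverage went from 5338 to 253 reads in wild type replicate 2 and from 4644 to 459 in KO replicate 2. The share of reads at position 34 that ended there ran from 90.1% to 98.7% over the 6 libraries, with a median of 98.3%. This end leaves a 5′ fragment that stops at the wobble base. Only 50 to 90 reads reached position 37 in the 4 libraries at the depth limit, against 212 in wild type replicate 2 and 412 in KO replicate 2. Where the limit was reached, reads beyond the 5′ fragment may therefore be undercounted relative to reads of other references.

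Lys-CTT-2, which stayed well below the limit, reached 1803, 1708 and 1878 reads in wild type and 1636, 1599 and 1841 in KO, all at position 18. Its ends were spread over many positions from 17 onwards, with 2 larger steps. Between 14.5% and 33.8% of its reads at position 34 and between 10.4% and 24.97% at position 35 ended there. A second step followed at position 41, in the 3′ strand of the anticodon stem, where 414, 552 and 555 reads ended in wild type and 336, 615 and 540 in KO. These ends made up 78.7%, 82.6% and 78.1% of the reads at position 41 in wild type and 59.3%, 82.6% and 73.9% in KO. KO replicate 1 was the low library, and the other KO values lay among or within 5 percentage points of those of wild type.

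Position 41 is also 1 of the 2 positions at which the CTT references differ. Reads of Lys-CTT-2 that end at or before position 28, or begin at position 42 or later, cannot be told from reads of Lys-CTT-3. How such reads were assigned is not given in the sources used here. A block of Lys-CTT-2 reads began inside the D loop, at position 16, with 397, 503 and 529 reads in wild type and 338, 553 and 553 in KO, which was between 21.0% and 35.9% of the coverage there. At least 31.7% to 76.9% of the reads starting there ended before position 42, by the balance of starts and ends, so that they aligned over at most 26 bases. The protocol in the labels selected RNA of 30 to 150 bases.

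Lys-TTT-1 reached 1715, 1497 and 1383 reads in wild type and 2028, 2029 and 2349 in KO, and its coverage formed 2 blocks with a trough between them. The 5′ block ended at position 32, before the anticodon: 66.3%, 71.4% and 73.1% of the reads there ended in wild type, and 69.5%, 73.1% and 73.7% in KO. At position 37 the coverage was 187, 117 and 166 reads in wild type and 227, 294 and 290 in KO. The 3′ block began abruptly 2 positions later.

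**Figure D1:**
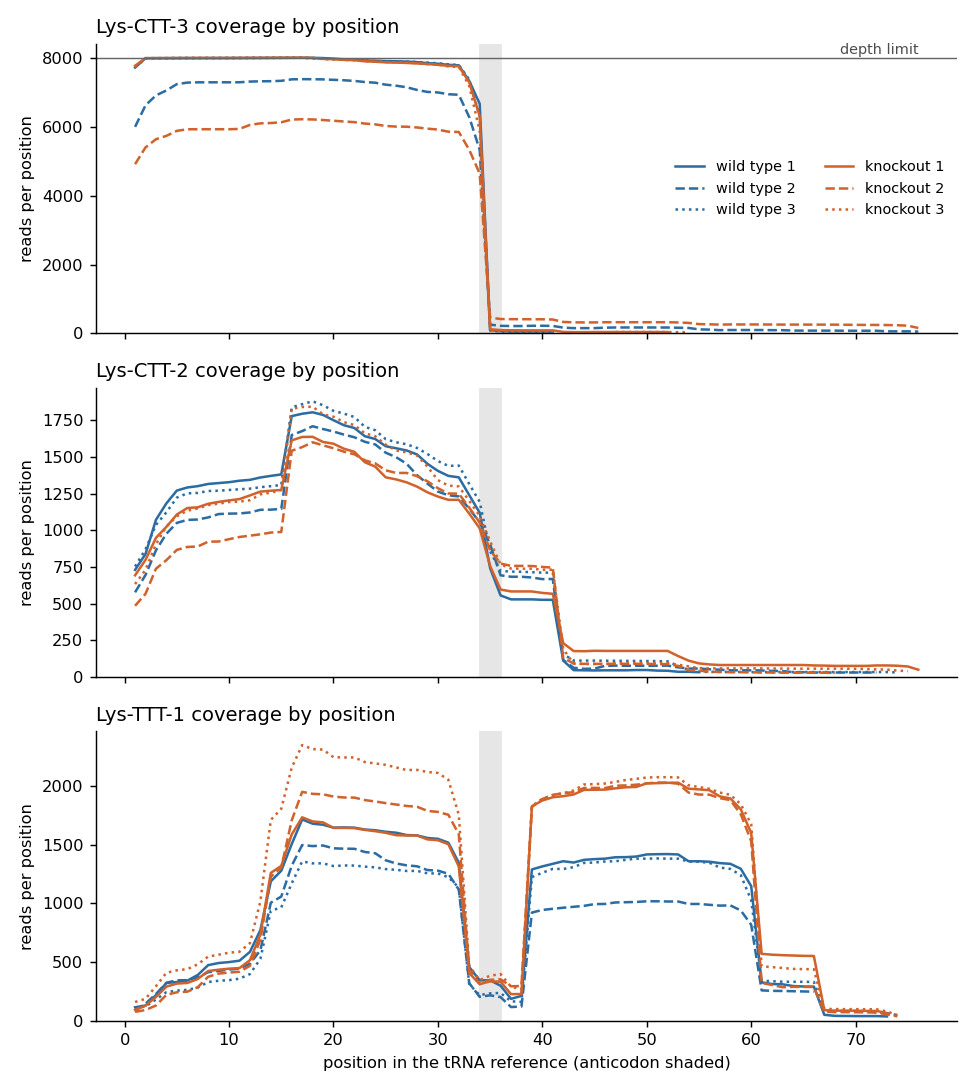
Reads covering each position of Lys-CTT-3, Lys-CTT-2 and Lys-TTT-1 (y axis, reads; x axis, position in the reference), with 1 line per library, wild type in blue and KO in orange, and the anticodon shaded. The horizontal line marks the limit near 8000 reads. Lys-CTT-3 falls at position 34 in every library, Lys-CTT-2 falls again at position 41, and Lys-TTT-1 has a trough around position 37 and a second block of coverage from position 39.

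At position 39 of Lys-TTT-1, 1073, 804 and 1060 reads began in wild type and 1602, 1524 and 1562 in KO. These were 83.2%, 87.2% and 86.6% of the coverage in wild type and 87.6%, 83.7% and 85.4% in KO, so the shares of the 2 genotypes overlapped. Over all libraries 85.6% of reads at this position began there. Among the 975 non-lysine positions that entered the test, each with a pooled share of at least 1%, the median share was 3.11%, and 18 positions (1.85%) were at least as high. The start lies 2 bases 3′ of the modified adenosine at position 37. The difference between genotypes had an adjusted p of 0.993 (quasi-binomial model with limma's variance moderation and Benjamini-Hochberg adjustment over all sites).

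The 3′ block of Lys-TTT-1 ended early. Of the reads at position 60, between 64.4% and 78.9% ended there, just beyond the adenosine at position 58, and in the 5 libraries listed at position 67, between 73.3% and 83.5% of those at position 66 ended at that base. At least 69.5%, 67.8% and 67.8% of the reads that began at position 39 in wild type, and 64.4%, 78.9% and 70.3% in KO, ended before position 61. They aligned over at most 22 bases, below the 30 bases of the size selection.

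Starts in the D arm of Lys-TTT-1 were broad. Position 14 held the largest share, between 34.7% and 43.7% of the reads there. At position 13, in the 5′ strand of the D stem, the share that began was 24.1%, 19.0% and 24.6% in wild type and 29.8%, 32.3% and 35% in KO. The 2 genotypes did not overlap at position 13. The means of 22.6% and 32.4% differed with an unadjusted p of 0.00274 in the quasi-binomial fit with limma, and an adjusted p of 0.291, so the site did not pass the test.

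**Figure D2:**
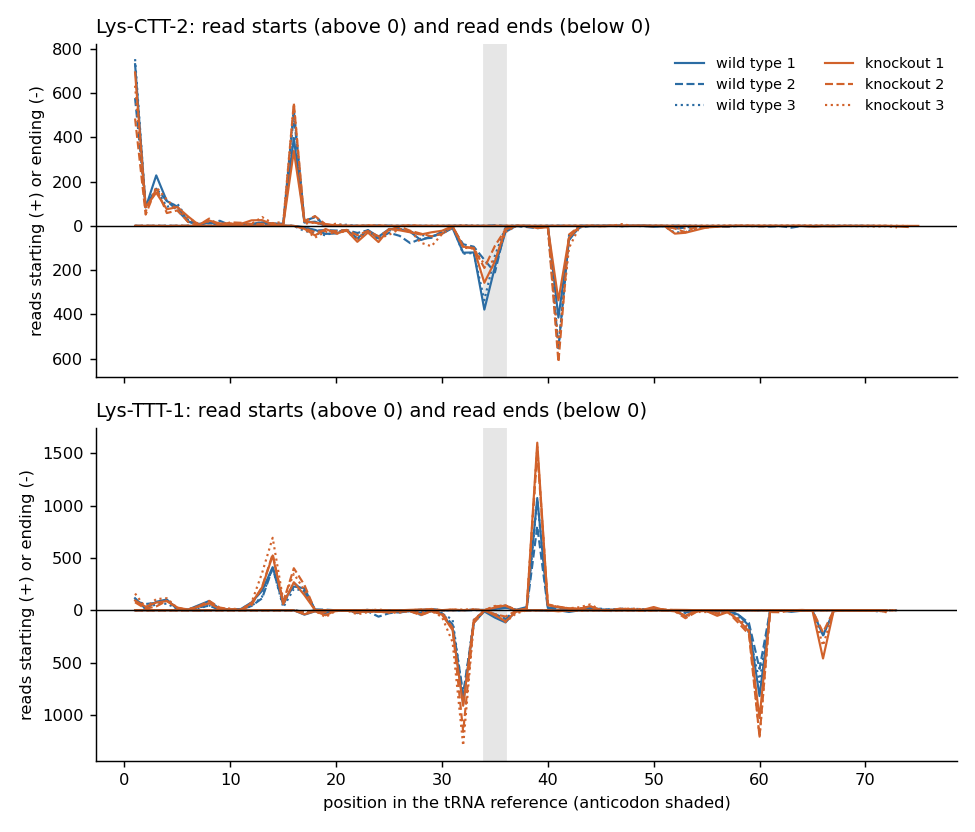
Reads that start (above 0) and end (below 0) at each position of Lys-CTT-2 and Lys-TTT-1 (y axis, reads; x axis, position in the reference), 1 line per library, wild type in blue and KO in orange, with the anticodon shaded. Starts of Lys-CTT-2 peak at positions 1 and 16 and its ends at positions 34 and 41; starts of Lys-TTT-1 peak at position 39, where 804 to 1602 reads begin, and its ends at positions 32 and 60.

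The difference between the kinds was put in 1 number, the 5′ share: the mean coverage of positions 1 to 33 as a percentage of itself plus the mean coverage of positions 38 to 73, with positions that a library does not list counted as 0. In Lys-CTT-3 it was 99.9%, 98.2% and 99.9% in wild type and 99.7%, 95.3% and 99.8% in KO. The values from libraries at the depth limit are affected by it, and the 2 libraries below it gave the 2 lowest. In Lys-CTT-2 it was 94.8%, 91.3% and 91.4% in wild type and 88.3%, 90.1% and 90.2% in KO. Lys-TTT-1 had 54.4%, 58.9% and 48.9% in wild type and 44.8%, 48.1% and 52.3% in KO, close to an even split.

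Within each of the 6 libraries Lys-TTT-1 lay below Lys-CTT-3, by 47.6 percentage points on average (difference -47.59, SD 5.24, n = 6; exact sign-flip permutation test, two-sided p = 0.031, the smallest that 6 libraries can give). Set against Lys-CTT-2, which was free of the depth limit and was chosen for this after the data were seen, the difference was -39.80 (SD 4.07), again lower in 6 of 6 libraries (exact sign-flip permutation p = 0.031). The 2 kinds therefore differed by more than the libraries did among themselves.

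Between genotypes the 5′ share moved less. It was 92.5% ± 2.02 (SD, n = 3) in wild type and 89.5% ± 1.10 (SD, n = 3) in KO for Lys-CTT-2, a difference of -2.98 percentage points without overlap between the groups (exact permutation test, two-sided p = 0.1, the smallest that 3 against 3 can give). With medians over positions in place of means the groups overlapped (98.8%, 95.8% and 97.6% against 93.4%, 96.9% and 95.6%; exact permutation p = 0.2). For Lys-TTT-1 it was 54.0% ± 5.02 and 48.4% ± 3.73, a difference of -5.63 with overlapping groups (exact permutation p = 0.2), and of -3.22 without wild type replicate 2. For Lys-CTT-3 the difference was -1.09 (exact permutation p = 0.5) and rested on KO replicate 2, without which it was 0.41. With 3 libraries a group none of these tests could pass 0.05, so a change of the 5′ share was not shown in either direction.

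Over all references, 1027 positions had enough reads to be tested for a change in the share of reads that start there, and none was called at an adjusted p of 0.05 (0% called), with 79 at an unadjusted p under 0.05. Of the 52 lysine positions among them, 0 were called and 4 had an unadjusted p under 0.05: position 13 of Lys-TTT-1 and Lys-TTT-2, position 17 of Lys-TTT-2 (15.6% in wild type, 11.3% in KO) and position 8 of Lys-CTT-2 (1.12% and 2.44%). A fit of arcsine-transformed shares with limma also called 0 of the 52. The 2 genotypes did not overlap at 7 lysine positions, against a background of 14% of all positions tested, a share like that of the background. Both counts hold the shared TTT reads under 2 names, so neither the 7 nor the 52 is a count of distinct positions. Leaving out a library changed none of these calls.

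At the adenosine at position 37 no departure from the reference was seen. Lys-TTT-1 was read there by 117 to 294 bases a library, with 0 mismatches, 0 deletions and 0 insertions in all 6, which allows a mismatch share of up to 1.02% to 2.56% depending on the library. Lys-CTT-2 had 0 mismatches in 529 to 757 bases a library, which allows up to 0.396% to 0.567%, and Lys-CTT-3 had 0 in 50 to 412 bases. Pooled over libraries these are 0 of 1281 bases for Lys-TTT-1 and 0 of 4009 for Lys-CTT-2. They come only from reads that cover position 37, and most Lys-TTT-1 reads of the 3′ block begin beyond it. Among other tRNAs that decode codons beginning with A, 4 references had enough reads there (Asn-GTT-3, Ile-AAT-1, Ile-AAT-3 and Ser-GCT-2), and their pooled mismatch ran from 0% to 0.0999%. At this depth the CTT and TTT kinds could not be told apart by misreading at position 37, whereas their read starts differed 2 bases downstream: 0 reads of Lys-CTT-2 began at position 39 in any library, over 529 to 756 reads. These limits, and all intervals below, cover counting error only, and reads without molecular identifiers are not independent molecules.

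The T-loop adenosine at position 58 was often misread in both kinds. In Lys-TTT-1 the mismatch was 13.6%, 14.3% and 15.2% in wild type, over 1337, 981 and 1294 bases, and 21.7%, 5.90% and 11.8% in KO, over 1894, 1880 and 1925 bases. The 95% Wilson intervals were 11.9% to 15.6%, 12.2% to 16.6% and 13.3% to 17.2% in wild type. In KO they were 19.9% to 23.6%, 4.93% to 7.06% and 10.5% to 13.4%, so KO replicates 1 and 2 lay on either side of all wild type libraries, beyond counting error. The means of 14.3% and 13.1% gave a difference of -1.21 percentage points with an adjusted p of 0.962 (quasi-binomial fit with limma). The difference was -5.47 without KO replicate 1 and 2.40 without KO replicate 2, so its sign rested on single KO libraries.

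Lys-CTT-2 was read at position 58 by few bases, and not listed in wild type replicate 1. The 2 CTT references have the same bases around position 58, so reads that do not reach a differing base could come from either. Its mismatch was 41.3% of 46 bases and 14.3% of 35 in wild type replicates 2 and 3, and 41.8% of 79, 57.6% of 33 and 32.1% of 56 in the KO replicates. The reads of wild type replicate 2 also departed from the reference nearby, with 15.2% mismatch at position 59 and 22.6% at positions 66 and 67. Those of KO replicate 3 had 12.3% mismatch at positions 65 and 67, and KO replicate 1 had insertions in 3.66% of reads at positions 60 and 65. At position 57, next to the adenosine, deletions were 3.66% in KO replicate 1 and 5.08% in KO replicate 3, and 0% in the other 3 libraries that list it. Lys-CTT-3 reached the position only in the 2 libraries below the depth limit, with 53.8% of 91 bases in wild type replicate 2 (95% Wilson interval 43.7% to 63.7%) and 52.6% of 251 in KO replicate 2 (46.4% to 58.7%). In 4 of 5 libraries the CTT mismatch, summed over references, was above that of TTT, and wild type replicate 3 was the exception. The difference within a library, TTT minus CTT, was -24.64 percentage points on average (SD 17.9, n = 5; exact sign-flip permutation p = 0.125, smallest possible 0.0625). With the best covered reference of each kind only 2 libraries remained, with differences of -39.58 and -46.69 (exact sign-flip permutation p = 0.5, the smallest possible).

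The base that was read in place of adenosine differed between the kinds. Many Lys-TTT-1 reads at position 58 ended at position 60, and whether this bears on the base read was not tested. Of 1267 mismatches at position 58 in Lys-TTT-1, 99.6% were guanine and 0.395% thymine, and cytosine was not read. Of 94 mismatches in Lys-CTT-2, 88.3% were thymine and 11.7% guanine, and of 181 in Lys-CTT-3, 55.2% were thymine and 44.8% guanine. By library the guanine share ran from 98.8% to 100% in Lys-TTT-1 and from 0% to 27.3% in the 5 libraries that list Lys-CTT-2 there, so the kinds did not overlap. The mean difference within a library was 92.2 percentage points (SD 12.4, n = 5; exact sign-flip permutation p = 0.0625, the smallest possible). This comparison was chosen after its values were seen, leaves Lys-CTT-3 out, and rests on few mismatches a library for Lys-CTT-2. In Lys-CTT-3, 17 of 49 mismatches were guanine in wild type replicate 2 and 64 of 132 in KO replicate 2. Both shares lay above the range of Lys-CTT-2 and below that of Lys-TTT-1. The median base quality at the position was between 38 and 40 in the lysine references.

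**Figure D3:**
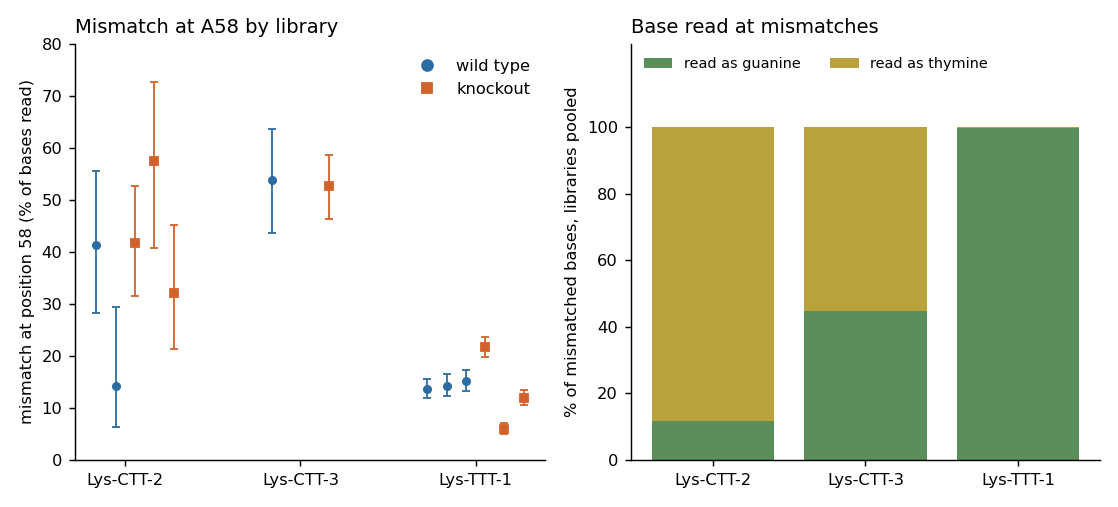
Left, mismatch at position 58 (y axis, % of bases read) with 95% Wilson intervals, 1 point per library, wild type as blue circles and KO as orange squares; a missing point is a library in which the position is not listed. Right, the base read at those mismatches, pooled over libraries (y axis, % of mismatched bases). Lys-TTT-1 mismatches are 99.6% guanine, those of Lys-CTT-2 88.3% thymine and those of Lys-CTT-3 55.25% thymine.

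Other nuclear-encoded tRNAs give the scale for these values. Among 26 non-lysine references with adenosine at position 58 and at least 100 bases in every library, the pooled mismatch ran from 0.0711% to 78.9% with a median of 8.63%, and 14 lay below Lys-TTT-1. Among the 17 with at least 100 mismatches, the guanine share had a median of 0.795%. It was at least 90% in 5 of them, Lys-TTT-1 being like these: Leu-CAA-1, Leu-CAA-2, Leu-CAA-3, Leu-CAA-4 and Leu-CAG-2, which are leucine isoacceptors. Names with the same anticodon can share reads, so these are not 5 separate observations.

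Insertions in lysine references could be tested only beside that adenosine. At position 59 of Lys-TTT-1, 0, 0 and 81 reads carried an insertion in wild type and 4, 6 and 2 in KO. The 81 reads of wild type replicate 3, 6.53% of its coverage, inserted adenine in 68 and thymine in 13, and no other library exceeded 0.341% at that position. In KO the 12 inserted reads were spread over all 3 libraries. At the last listed base of Lys-TTT-1, position 74, which 3 libraries list, 7 reads carried an insertion in wild type replicate 3 (14.6%), 11 in KO replicate 2 (28.9%) and 3 in KO replicate 3 (6.25%). At position 5 of Lys-TTT-1, 3 reads did so in wild type replicate 1 and 8 in wild type replicate 2. The quasi-binomial fit with limma called 0 of 2 lysine positions (adjusted p = 0.429), which are position 59 of Lys-TTT-1 and of Lys-TTT-2 with the same inserted reads and so 1 event, and 0 of 35 over all references (0% called, 3 at an unadjusted p under 0.05). Without wild type replicate 2 that event passed the test under both names (adjusted p = 0.0089), so the result rests on which wild type libraries are used. The genotypes overlapped under both names, and did not overlap at 5.71% of the 35. The only lysine position tested for deletions was position 58 of Lys-TTT-2, with 0.693% in wild type and 1.195% in KO (quasi-binomial fit with limma, adjusted p = 0.677; 0 of 60 positions called over all references, 0% called, 8 at an unadjusted p under 0.05). At untested positions of Lys-TTT-1, deletions reached 3.875% at position 15 and 5.645% at position 66 in wild type replicate 2. They reached 8.11% (3 reads) at position 73 in wild type replicate 1, and 13.5% (5 reads) at position 6 of Lys-TTT-2 in KO replicate 2.

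Before position 58, the positions singled out in the lysine references were misread at low shares, with exceptions in single libraries or at few reads. In Lys-TTT-2, which was listed at position 5 in KO only, 5 of 37, 1 of 32 and 16 of 37 bases were misread there. In Lys-TTT-1, 30 of 345 bases were misread at position 5 in wild type replicate 2 (8.70%), and at most 0.631% in the other libraries. Lys-CTT-3 was misread at 6.63%, 6.62% and 6.58% at positions 42, 44 and 45 in wild type replicate 2, and Lys-CTT-2 at 8.70% at position 44 in wild type replicate 1. At position 10, in the D stem, the pooled mismatch was 1.36% in Lys-CTT-3, 0.965% in Lys-CTT-2 and 0.442% in Lys-TTT-1. At position 6, in the acceptor stem, it was 1.30%, 1.02% and 1.79%. At position 27 of Lys-TTT-1 it was 0.154%, and at the wobble position 34 it was 0.403%, with 1.96% in wild type replicate 2 as its highest value. The bases at positions 26 and 27 are adenosine and uridine in all of them, so none offers a guanosine at either place. Of the 142 positions in all references that could be tested for a change in mismatch, 0 were called (0% called, 12 at an unadjusted p under 0.05). Among them 7 were lysine positions, of which 0 were called and 0 had an unadjusted p under 0.05, with the quasi-binomial fit and with limma on arcsine-transformed shares alike. The genotypes overlapped at all 7, and did not overlap at 3.52% of the 142.

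**Figure D4:**
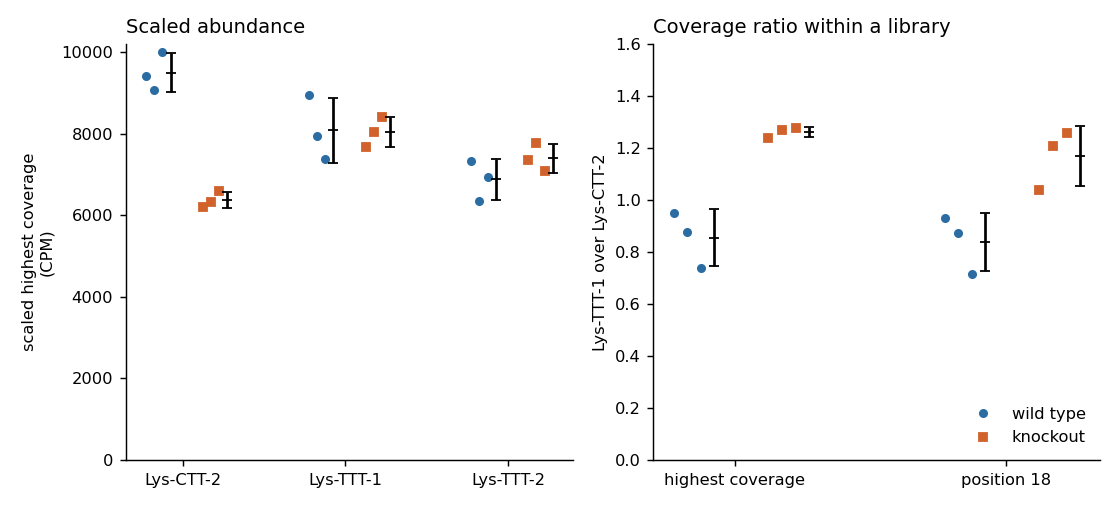
Left, highest coverage per reference after TMM scaling (y axis, CPM), 1 point per library with mean ± SD, wild type as blue circles and KO as orange squares. Right, coverage of Lys-TTT-1 divided by that of Lys-CTT-2 in the same library, at the highest position and at position 18. Lys-CTT-2 lies between 9075 and 10009 CPM in wild type and between 6192 and 6584 in KO, and the ratio is higher in all 3 KO libraries at both positions.

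The level of each reference was taken as its highest coverage, expressed as CPM (its part of the library total on the usual CPM scale) after scaling by the trimmed mean of M-values (TMM) over the 145 references listed in all 6 libraries. Lys-CTT-2 had 9407, 9075 and 10009 CPM in wild type and 6192, 6334 and 6584 in KO. Every KO library lay below every wild type library, with means of 9497 ± 474 (SD, n = 3) and 6370 ± 198 (SD, n = 3). It fell by 0.58 on the log2 scale (SE 0.15, edgeR quasi-likelihood test, adjusted p = 0.0156). In the unscaled counts the groups overlapped, and all 3 KO libraries had more base calls than any wild type library. The call was lost without wild type replicate 1 (edgeR adjusted p = 0.0534), wild type replicate 3 (0.0554), KO replicate 1 (0.0572) or KO replicate 3 (0.071), and with the median in place of the highest coverage (0.136). The log2 fold changes in these 4 fits with a library left out were -0.58, -0.54, -0.58 and -0.66, and with median coverage -0.85 (SE 0.29).

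Lys-TTT-1 had 8948, 7954 and 7371 CPM in wild type and 7676, 8037 and 8401 in KO, which overlap. Its log2 fold change was -0.01 (SE 0.15, edgeR adjusted p = 0.959). The sign turned, to 0.08 without scaling beyond the library total, 0.10 with all references kept, 0.06 with median coverage and 0.07 without wild type replicate 1. Lys-TTT-2, which shares its reads, had 6878 ± 499 in wild type and 7400 ± 354 in KO (log2 fold change 0.11, edgeR adjusted p = 0.664). The sign of Lys-TTT-2 turned too, to -0.03 without KO replicate 2 and -0.38 under upper-quartile scaling. Lys-CTT-3 gave -0.57 (edgeR adjusted p = 0.00103), but 4 of its 6 values are at the depth limit, which does not grow with the library, so this value is no measure of its level. The median log2 fold change over the 4 lysine references was -0.29, beside 0.00 (-0.0041) over all references; it includes the depth-limited Lys-CTT-3 and counts the shared TTT reads under 2 names, so it describes neither kind.

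Over all references 15 of 145 were called lower in KO (10.3%) and 18 higher (12.4%), and the scaled values of 33.8% did not overlap between genotypes. The 2 lysine references called lower, of 4 tested, include Lys-CTT-3 with its limit. Under upper-quartile scaling the split over all references became 12 higher and 59 lower, with the median of all at -0.49. Lys-CTT-2 was then at -1.06 (edgeR adjusted p = 0.000526) and Lys-TTT-1 at -0.51 (0.0585).

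A ratio within a library needs no scaling. Lys-TTT-1 over Lys-CTT-2, chosen after the data were seen, was 0.951, 0.876 and 0.736 in wild type and 1.24, 1.27 and 1.28 in KO at the highest coverage, without overlap (0.855 ± 0.109 and 1.26 ± 0.0193, SD, n = 3). The log2 difference was 0.57 (exact permutation test, two-sided p = 0.1, the smallest possible). The highest coverage of Lys-CTT-2 was at position 18 in every library, and that of Lys-TTT-1 was at position 17 in wild type replicates 1 and 2 and KO replicate 3 but in the 3′ block, at position 51 or 53, in the other 3 libraries, so this ratio sets different parts against each other. At position 18, the same place in both references, the ratio was 0.931, 0.871 and 0.714 in wild type and 1.04, 1.21 and 1.26 in KO (log2 difference 0.48, exact permutation p = 0.1). The bases around position 18 are the same in both references, and how reads lying within that stretch were assigned is not given in the sources used here. Over positions 38 to 73 the ratio was 11.5, 5.31 and 6.48 in wild type and 7.65, 9.75 and 8.87 in KO, with overlapping groups (log2 difference 0.25, exact permutation p = 0.6). Wild type replicate 1 lists Lys-CTT-2 only to position 55, and its ratio counts the unlisted positions as 0, although up to 29 reads may lie at each. With 3 libraries a group these tests could not pass 0.05, so a change of the ratio was not shown in either part, and whether the parts differ was not tested.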

How the data were processed

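Small RNA of mouse brain was sequenced in 3 wild type and 3 TRMT1L KO libraries. The authors deposited, per library, counts at each tRNA position of coverage, each base, insertions, deletions and read starts, with mean and median base quality scores, per the file headers. GATK 3.5 is named in the submitters' processing notes without a role; the aligner, its settings and the reference build are not given in the sources used here. Positions under 30 reads are not listed. Read starts are listed 1 position after the start and were moved back. Read ends were taken from the balance of coverage and starts, and are approximate near indels.

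Shares per site were compared between genotypes with a quasi-binomial model (R 4.3.3, limma 3.58.1 variance moderation, dispersion at least 1, Benjamini-Hochberg adjustment over all references) at positions with at least 100 reads in every library and a pooled share of at least 1%, and highest coverage with edgeR 4.0.16 quasi-likelihood tests. DESeq2 1.42.0, other scalings, filters and left-out libraries were the alternatives. Sites at or above 8000 reads in any library stayed out of the read-start test. The programs were tested on simulated data. Named are all lysine references and the positions 37 and 58 with the sites leading each profile; members and lists were chosen with earlier results of these data known. Libraries of a group differed beyond sampling noise (chi-square per degree of freedom 16.4 to 58.2), and p-values measure only the spread between libraries. The same replicate number showed no pairing of libraries across genotypes: correlations of their deviations ran from -0.172 to 0.132 over all measures, and no measure had every pair above 0.1.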

Additional observations from a re-analysis of the deposited data

How the results depend on the processing

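The 2 lysine references called in abundance became 0 with median coverage, 1 with references at the depth limit left out, and 1 to 2 when a library was left out. Of the lysine insertion positions, 0 to 2 were called when a library was left out, both being position 59 of the TTT references with the same inserted reads. Over all references, 33 calls became 71 with upper-quartile scaling, 13 with median coverage and 20 with depth-limited references left out; the 0 deletion positions called became 1 with a coverage minimum of 500, 1 with a pooled share of at least 5% and 2 without wild type replicate 2, the 0 read-start positions became 4 with positions at the depth limit kept, and the 0 insertion positions became 3 without wild type replicate 2. None of these deletion and read-start positions was in a lysine reference. The KO minus wild type difference in the 5′ share ranged, with a library left out, from -1.86 to 0.41 percentage points for Lys-CTT-3, which reversed without KO replicate 2, and from -8.23 to -3.22 for Lys-TTT-1. The TTT minus CTT difference in the 5′ share ranged from -49.23 to -46.13, each at the smallest p that 5 libraries allow (exact sign-flip permutation p = 0.0625). The position 58 comparison of the best covered references, with 2 libraries, could not be repeated with 1 left out. With the replicate number as a block, 0 lysine positions were called for mismatch, read starts, deletions or insertions, Lys-CTT-2 was at -0.58 (edgeR adjusted p = 0.0273), and the block changed no other lysine call; the numbers do not pair the libraries. Apart from these and the lost calls of Lys-CTT-2 (4 left-out libraries, median coverage) and Lys-CTT-3 (median coverage, edgeR adjusted p = 0.861), the alternatives run kept each lysine result on its side of the threshold. The log2 fold change of Lys-TTT-1 (-0.01), which was not called, was 0.10 with no filter, 0.06 with median coverage, 0.08 without scaling and 0.07 without wild type replicate 1. That of Lys-TTT-2 (0.11), also not called, was -0.03 without KO replicate 2 and -0.38 with upper-quartile scaling. The causes of these changes were not tested. Depth limits Lys-CTT-3 from above and the 3′ part of both CTT references from below.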
